A study of Mus musculus with 8 samples.

Results

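Podosome and actin cytoskeleton genes were followed through 8 RNA-seq libraries of mouse bone marrow macrophages. The set was a list of 52 gene symbols, kept where the level was at least 1 RPKM in at least 2 libraries. RPKM is a tag count scaled by the exon length of the gene and by the tags of the library. All 51 symbols found among the 24940 genes of the table passed that limit. Diap1 is not a symbol of the table. The formin Diaph1, for which it is an older name, lay between 52.9 and 62.5 RPKM and passed no test. Cttn, the cortactin gene, sat just inside the limit, with 0.671 to 1.5 RPKM and a mean of 0.933 RPKM.

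Podosomes are small contact points through which macrophages and osteoclasts grip a surface. Each has a core of branched actin, built by the Arp2/3 complex under the control of WASP proteins, and a ring of integrin adaptors such as vinculin, talin and paxillin. Non-muscle myosin II and small GTPases govern their tension and turnover, and in osteoclasts podosomes gather into the sealing zone around the bone that is being resorbed. Src kinase is required for that belt and for resorption.

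The cells came from the marrow of C57BL/6 mice aged 6 to 8 weeks. Marrow cells had M-CSF, the growth factor of the macrophage lineage, at 5 ng/ml for 16 h. The cells that did not stick were then grown in M-CSF at 30 ng/ml for 3 days, and the adherent ones were used. They carried a short hairpin labelled NCsh or TMBIM6sh and stayed in M-CSF at 30 ng/ml, either with RANKL, the cytokine that drives osteoclast formation, at 100 ng/ml for 24 h, or without it. The 4 groups were thus NCsh without RANKL, NCsh with RANKL, TMBIM6sh without RANKL and TMBIM6sh with RANKL, with 2 libraries each. The labels do not spell out NCsh, name 1 hairpin on each side and give the same treatment text to all 8 samples, so the RANKL state was read from the titles. They do not say whether duplicates came from separate mice or cultures, so the p-values measure only the spread between these libraries.

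Tmbim6, the gene the hairpin is named for, stood at 330 and 334 RPKM in NCsh libraries without RANKL and at 309 and 321 RPKM with it. In TMBIM6sh libraries it stood at 11.1 and 11.7 RPKM, and at 10 and 10.5 RPKM with RANKL. Depth was 25472500 to 28592500 tags per library, of which 83.5% to 86.4% fell in exons. All 8 macrophage markers in the table were above 1 RPKM, and their summed level ran from 9384 to 10784 RPKM in NCsh, 9193 to 9270 in NCsh with RANKL, 8584 to 8590 in TMBIM6sh and 7498 to 8113 in TMBIM6sh with RANKL. Of 9 osteoclast markers, 3 or 4 were at 1 RPKM or more per group, while Ctsk, Calcr and Oscar did not exceed 0.075 RPKM. The osteoclast sum was 86.9 to 93.7 RPKM in NCsh, 99.2 to 108 in NCsh with RANKL, 85.1 to 85.9 in TMBIM6sh and 134 to 146 in TMBIM6sh with RANKL. Mmp9, a matrix protease, carried the gain: it had 12.7 RPKM in both NCsh libraries, 29.7 and 30.6 in NCsh with RANKL, 22.2 and 21.6 in TMBIM6sh and 69.4 and 73.3 in TMBIM6sh with RANKL. Atp6v0d2, a proton pump subunit, went the other way, with 14.9 and 14.8, 12.2 and 12.1, 10.3 and 9.59, and 6.94 and 6.47 RPKM in the same order. Acp5, the phosphatase TRAP, had 57.1 and 64.7 RPKM in NCsh and 56 and 64.1 RPKM in NCsh with RANKL. Neutrophil markers, mostly S100a8, summed to between 22.5 and 28.1 RPKM in NCsh and between 11.5 and 15.5 RPKM in TMBIM6sh libraries. Megakaryocyte markers, mostly Pf4, summed to between 46.4 and 65 RPKM in NCsh and between 88.8 and 108 RPKM in TMBIM6sh libraries. Stromal markers summed to between 6.75 and 7.35 RPKM in NCsh and between 7.69 and 8.54 RPKM in TMBIM6sh libraries, and osteoblast markers to between 2.3 and 2.83 and between 1.82 and 2.09 RPKM. The macrophage, neutrophil, megakaryocyte, stromal and osteoblast sums moved with the hairpin without overlap, the osteoclast sum moved with RANKL, and their part in the results below was not tested. Lyz2 made up most of the macrophage sum, with 6799 to 8071 RPKM in NCsh and 5280 to 6172 RPKM in TMBIM6sh libraries. With both RANKL states pooled, each of the other macrophage markers overlapped between the hairpins, but within a state most did not. Without RANKL both TMBIM6sh libraries lay below both NCsh libraries for Csf1r, Adgre1, Cd68, Itgam, Mertk and Cd14, while Fcgr1 overlapped. With RANKL this held for Csf1r, Itgam and Mertk, while Adgre1, Fcgr1 and Cd14 overlapped and Cd68 reached 821 RPKM with both hairpins. Only S100a8, Pf4 and Runx2 reached 1 RPKM in the neutrophil, megakaryocyte and osteoblast lists. Those sums are mainly the level of 1 gene each and do not stand for a cell type. The macrophage sum is mostly the level of Lyz2 and the osteoclast gain mostly that of Mmp9, so these sums do not stand for a cell type either. For any list, fewer cells of a type and less RNA per cell cannot be told apart in whole-culture RNA.

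Serum response factor, which drives many actin genes, binds a CArG box, here read as CC, then 6 letters that are each A or T, then GG. The promoters of 45 members, 55 in all, were matched in RefSeq (GRCm38.p6, the mm10 build), from 250 bases before the start to 50 after. The other 6 members, Actb, Ptk2b, Pxn, Cttn, Coro1b and Rock1, had no promoter entry, so theirs were not searched. A CArG box stood in 4 of the 55 (7.27%), against 1.63% of all 32851 promoters and 1.23% of the 10886 promoters of genes tested. The motif was chosen after the values were seen, reads alike on both strands, and a match is only a match of letters. All 4 genes with a match are shown, with 60 bases 5′ to 3′ on the gene's strand and the box in capitals. Each is called in a comparison below, as are 24 of the 51 members in at least 1 comparison. They are Actg1 (chr11:120348551-120348610, minus strand), Arpc4 (chr6:113377863-113377922, plus strand), Myo1e (chr9:70207290-70207349, plus strand) and Vcl (chr14:20929148-20929207, plus strand).
Actg1: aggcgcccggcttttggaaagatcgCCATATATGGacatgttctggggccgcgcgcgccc
Arpc4: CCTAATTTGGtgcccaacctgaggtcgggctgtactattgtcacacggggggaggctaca
Myo1e: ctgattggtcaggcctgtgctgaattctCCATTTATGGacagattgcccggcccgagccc
Vcl: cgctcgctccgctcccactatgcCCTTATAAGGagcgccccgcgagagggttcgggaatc
The box begins 90 bases before the start of Actg1, 250 before Arpc4, 32 before Myo1e and 227 before Vcl. These 4 genes did not share a direction: in the hairpin comparisons below Actg1 and Arpc4 were lower, Myo1e was higher and Vcl passed in neither. The Sp/KLF letters GGGCGG, read on both strands, stood in 72.7% of member promoters and 63.4% of those of genes tested. The AP-1 letters TGANTCA stood in 5.45% against 5.06%, and the PU.1 letters GAGGAA in 23.6% against 27%.

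The set was highly expressed. The median member had a mean of 128 RPKM over the 8 libraries, against 9.29 RPKM for the 11040 genes tested, and 49 members lay above that median. Actb and Actg1, the cytoplasmic beta and gamma actins, averaged 1333 and 1131 RPKM and ranked 13 and 17 among genes tested. Cfl1, the filament-severing cofilin, ranked 21 at 1022 RPKM, and Pfn1, the monomer-binding profilin, ranked 41 at 718 RPKM. At the other end 7 members averaged under 20 RPKM. Members took 3.12% to 3.55% of all exon tags.

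**Figure D1:**
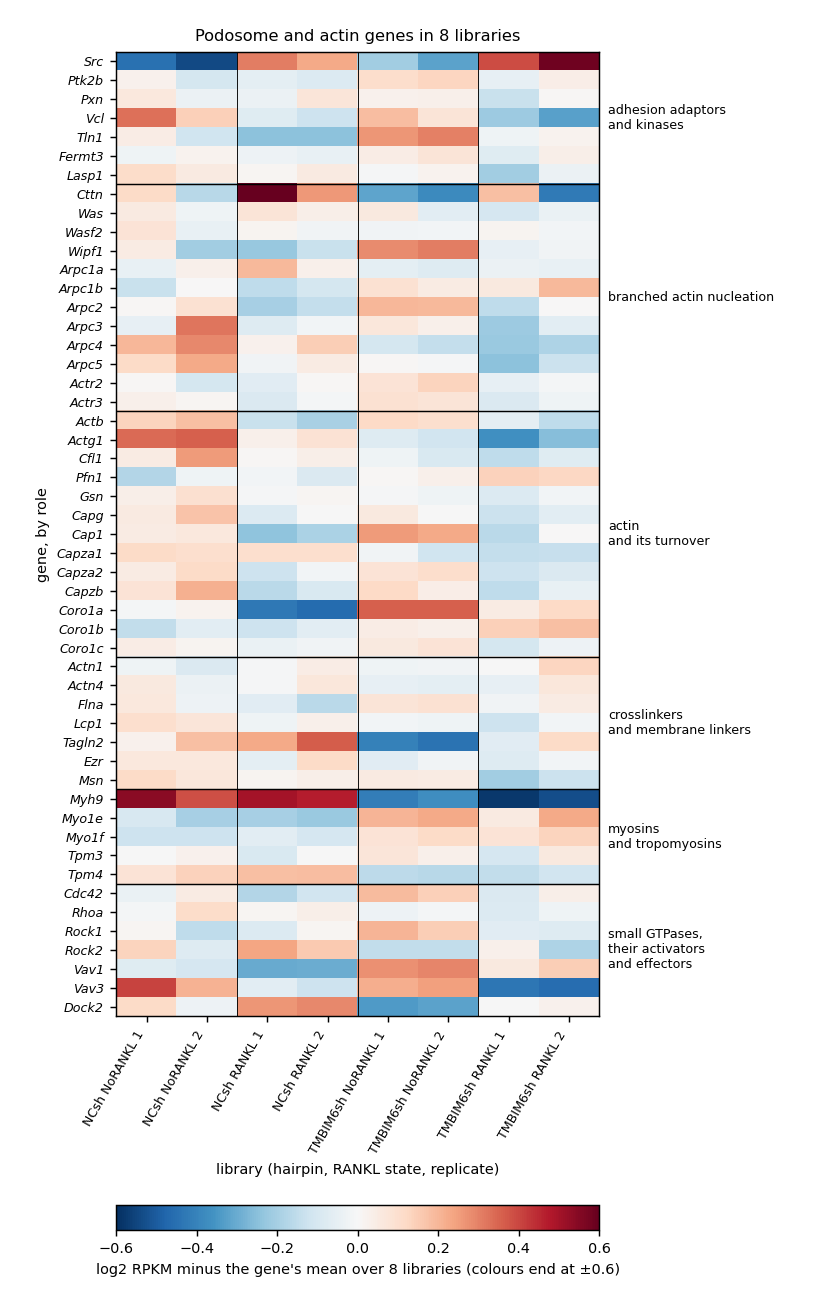
Log2 RPKM of the 51 members in each of the 8 libraries, after subtracting the mean of each gene over all libraries, with genes grouped by role; red is above and blue below the gene's mean, and colours end at ±0.6. Myh9 is red in the 4 NCsh libraries and blue in the 4 TMBIM6sh libraries, and Src is red in the 4 RANKL libraries.

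In NCsh libraries RANKL lowered 8 members and raised 2, out of 51, by limma with Benjamini-Hochberg adjustment over all genes tested and a threshold of 0.05. That is 19.6% of the set, where 15.0% of all genes tested were called. By direction, 3.98% of genes tested were lower and 11.0% were higher. The median log2 change of the members was -0.06 and that of all genes 0.06. The changes were small, since 1 member, Src, passed 1.5-fold on the log2(RPKM + 1) scale, as did 4.44% of genes tested. Of the 13 genes of actin and its turnover 5 were lower and 0 higher. Among 7 small GTPases and regulators 2 were lower and 1 higher, and among 7 adhesion adaptors and kinases 1 was lower and 1 higher. The 12 genes of branched actin nucleation, 7 crosslinkers and 5 myosins and tropomyosins held no call. Called or not, 8 members had both RANKL libraries above both others, and 26 had both below. Between hairpins without RANKL, 22 members had both TMBIM6sh libraries above both NCsh libraries, and 19 had both below. A lack of overlap, given for single genes below, therefore adds little to a call. Its share over all genes tested was not counted, so these counts cannot be read as a shift particular to the set.

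Src, the resorption kinase, spans 157424293 to 157471838 of chromosome 2 on the plus strand of mm10. It had 5.87 and 5.5 RPKM in NCsh libraries without RANKL and 9.88 and 9.37 RPKM with it, from 599 to 1181 tags per library across all groups. Both RANKL libraries stood above both others. The mean rose from 5.68 ± 0.266 to 9.62 ± 0.364 RPKM (SD, n = 2), a log2 change of 0.67 (SE 0.0866, adjusted p = 0.00116 by limma). Coro1a, the leukocyte coronin that binds filaments, spans 126699774 to 126704816 of chromosome 7 on the minus strand. It had 164 and 168 RPKM without RANKL and 123 and 120 RPKM with it, with no overlap, and fell by 0.44 on the log2 scale (SE 0.0574, adjusted p = 0.00116 by limma).

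Both cytoplasmic actins were lower with RANKL. Actb went from 1455 and 1502 RPKM to 1208 and 1161 RPKM and fell by 0.32 on the log2 scale (SE 0.0775, adjusted p = 0.0234 by limma). Actg1 went from 1411 and 1428 RPKM to 1139 and 1184 RPKM and fell by 0.29 (SE 0.076, adjusted p = 0.0322 by limma). For neither actin did the groups overlap. Cap1, which recycles actin monomers, went from 370 and 373 RPKM to 302 and 313 RPKM (log2 -0.27, adjusted p = 0.0299), and Capzb, the beta subunit of capping protein, from 244 and 267 to 206 and 216 RPKM (log2 -0.27, adjusted p = 0.0299). Vcl, the vinculin of the podosome ring, went from 15.5 and 13.6 RPKM to 11.7 and 11.3 RPKM (log2 -0.31, adjusted p = 0.032).

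The guanine exchange factors, which load small GTPases with GTP, went both ways. Vav3 had 12.3 and 10.7 RPKM without RANKL and 8.87 and 8.5 RPKM with it (log2 -0.37, adjusted p = 0.0151). Vav1 had 59.5 and 58.3 RPKM and then 50.7 and 50.9 RPKM (log2 -0.21, adjusted p = 0.0356). Dock2, an activator of Rac, had 51.3 and 46.4 RPKM and then 57 and 57.9 RPKM (log2 0.23, adjusted p = 0.0361). In each of the 3 the RANKL libraries stood apart from the others. Of the 10 calls, those of Src and Coro1a held in all 14 alternatives. The other 8 ended without either NCsh RANKL library, which left 2 calls, and 7 of them, all but Vav3, without either TMBIM6sh library lacking RANKL, which left 3 (adjusted p up to 0.22). Vav1, Vav3 and Vcl were also lost without NCsh library 1 lacking RANKL, and Cap1, Capzb and Dock2 without library 2. With median-ratio scaling of the libraries 16 members were lower and 1 higher. That scaling moved the median log2 change of all genes tested from 0.0643 to -0.00718. The share of all genes tested called under it was not counted, here or where its counts are given below. Those counts therefore cannot be told apart from a shift of all genes.

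In TMBIM6sh libraries RANKL lowered 8 members and raised 3. This was 21.6% of the set, with 15.4% of all genes tested called, 6.89% lower and 8.53% higher. The median log2 change was -0.08 for members and 0.02 for all genes. Src rose again, from 6.93 and 6.4 RPKM to 10.5 and 12 RPKM, by 0.67 on the log2 scale (SE 0.0866, adjusted p = 0.000766 by limma). Vav3 went from 10.8 and 11 RPKM to 6.87 and 6.75 RPKM, the lowest of the 4 groups, and fell by 0.61 (SE 0.0805, adjusted p = 0.00089 by limma). Src and Vav3 were the members past 1.5-fold on the log2(RPKM + 1) scale, as were 5.06% of genes tested. Tagln2, the actin-binding transgelin-2, had 94 and 91.7 RPKM without RANKL and 119 and 135 RPKM with it, and rose by 0.44 (adjusted p = 0.0054). Dock2 had 37.5 and 37.9 RPKM and then 47.4 and 48.2 RPKM (log2 0.34, adjusted p = 0.00573). All 4 changes left the RANKL libraries clear of the others.

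The other 7 lower members in TMBIM6sh libraries were spread over the roles. In the ring, Vcl went from 14 and 13 RPKM to 10.6 and 9.82 RPKM (log2 -0.37, adjusted p = 0.0134) and Tln1, the talin that links integrins to actin, from 154 and 158 to 126 and 130 RPKM (log2 -0.28, adjusted p = 0.0177). In the core, Wipf1, the partner that stabilises WASP, went from 48.9 and 49.8 to 38.8 and 39.6 RPKM (log2 -0.32, adjusted p = 0.0248). The Arp2/3 subunit gene Arpc2 went from 524 and 523 to 411 and 457 RPKM (log2 -0.27, adjusted p = 0.0332). No overlap was seen in any of these genes. Cap1 (log2 -0.32, adjusted p = 0.0132), Coro1a (log2 -0.27, adjusted p = 0.0109) and Msn, the membrane linker moesin (log2 -0.22, adjusted p = 0.0483), made up the rest. Actb and Actg1 had log2 values of -0.21 each and did not pass (adjusted p = 0.0992 and 0.0915).

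With both hairpins alike, Src and Dock2 rose and Coro1a, Vav3, Vcl and Cap1 fell. The RANKL changes of the 51 members in the 2 hairpins, which rest on separate libraries, had Pearson's r of 0.858 and Spearman's coefficient of 0.793 across genes, with r of 0.697 over all genes tested. Of the 11 calls in TMBIM6sh libraries those of Src and Vav3 held in all 14 alternatives. Leaving out either TMBIM6sh library without RANKL left 3 calls, TMBIM6sh RANKL library 1 left 5 and library 2 left 7 (adjusted p of lost calls up to 0.254), while leaving out either NCsh library without RANKL gave 17. Arpc2 and Msn were lost without either NCsh RANKL library as well. Median-ratio scaling gave 16 lower and 3 higher.

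**Figure D2:**
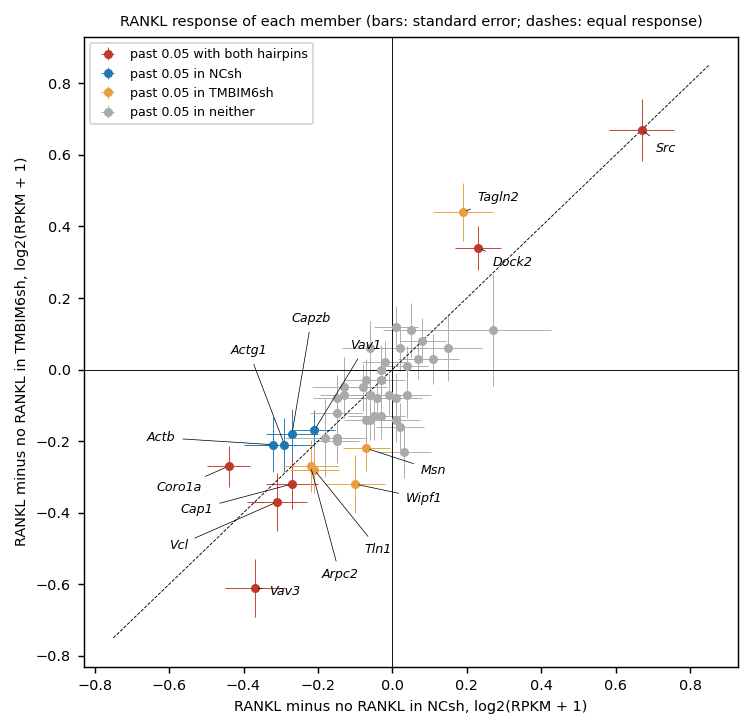
Change with RANKL in NCsh libraries (horizontal) against the change in TMBIM6sh libraries (vertical) for each of the 51 members, in log2(RPKM + 1), with standard errors; colour shows in which hairpin the adjusted p was under 0.05. Src lies at 0.67 on both axes, and Vav3 at -0.37 and -0.61.

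The difference between the 2 RANKL responses was tested as an interaction, and 0 of 51 members passed (limma, smallest adjusted p = 0.624). In all 11040 genes tested 1 passed (0.00906%). The differences ran from -0.27 to 0.26 on the log2 scale. At an unadjusted p under 0.05 there was 1 member, the myosin-activating kinase Rock1, against 857 genes tested (7.76%). Rock1 had a change with RANKL of 0.03 in NCsh and -0.23 in TMBIM6sh libraries, which made a difference of -0.27 (95% interval -0.50 to -0.04, adjusted p = 0.624). For Src the difference was 0.00 with a 95% interval of -0.27 to 0.28. A p that misses the threshold does not show that the responses were alike.

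Between hairpins, without RANKL, 7 members were higher and 7 lower in TMBIM6sh libraries. This was 27.5% of the set beside 24.2% of all genes tested, of which 10.4% were higher and 13.8% lower. With RANKL 7 were higher and 9 lower, 31.4% beside 28.6%, with 8.93% of genes tested higher and 19.7% lower. The median log2 difference of the members was -0.04 in both states, and that of all genes -0.02 without and -0.07 with RANKL. Across the set 5 members were higher in TMBIM6sh in both RANKL states (Coro1a, Vav1, Myo1e, Myo1f and Tln1) and 7 lower in both (Myh9, Actg1, Tagln2, Dock2, Arpc4, Tpm4 and Capza1). With median-ratio scaling the split was 10 higher and 6 lower without RANKL and 12 higher and 4 lower with it, so the balance of directions depends on the scaling, though no call changed sign.

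Myosins and tropomyosins held the largest difference of the set, and of the 5 genes 2 were higher and 2 lower in each state. Myh9, the heavy chain of non-muscle myosin IIA, which contracts actin filaments, spans 77760585 to 77842175 of chromosome 15 on the minus strand. Its level was 165 and 148 RPKM in NCsh libraries, 160 and 157 RPKM in NCsh with RANKL, 84.8 and 87.4 RPKM in TMBIM6sh and 75.8 and 78.3 RPKM in TMBIM6sh with RANKL, from 14408 to 33221 tags. All 4 TMBIM6sh libraries lay below all 4 NCsh libraries. Without RANKL the mean was 156 ± 11.9 against 86.1 ± 1.89 RPKM (SD, n = 2), a change of -44.9% and a log2 difference of -0.85 (SE 0.0652, adjusted p = 3.63e-05 by limma). With RANKL it was 159 ± 1.95 against 77.1 ± 1.81 RPKM (SD, n = 2), a change of -51.4% and a log2 difference of -1.03 (SE 0.0652, adjusted p = 1.18e-05 by limma). It was the only member past 1.5-fold on the log2(RPKM + 1) scale in either state, where 5.82% and 7.3% of genes tested were. That scale understates low genes: with RANKL the mean RPKM of Cttn was -34.6% apart (log2 -0.31 on that scale, adjusted p = 0.166), and it did not pass. The calls held in all 14 alternatives, at adjusted p of at most 0.00169.

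Myo1e and Myo1f, class I myosins that tie membrane to actin, differed the other way. Myo1e had 87.1 and 81 RPKM in NCsh, 81 and 79.6 in NCsh with RANKL, 107 and 109 in TMBIM6sh and 96.6 and 109 in TMBIM6sh with RANKL. Its TMBIM6sh libraries lay above the NCsh ones in both states (log2 0.36 and 0.35, adjusted p = 0.00536 and 0.00526). Myo1f, its close relative in leukocytes, had 112 to 117 RPKM in the NCsh libraries and 129 to 134 RPKM in the TMBIM6sh libraries (log2 0.22 and 0.18, adjusted p = 0.0188 and 0.0328). Tpm4, a tropomyosin that lies along filaments, had 203 to 218 RPKM in the NCsh and 171 to 177 RPKM in the TMBIM6sh libraries (log2 -0.27 and -0.31, adjusted p = 0.00774 and 0.003). Tpm3 had log2 values of 0.04 and 0.03 and did not pass.

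**Figure D3:**
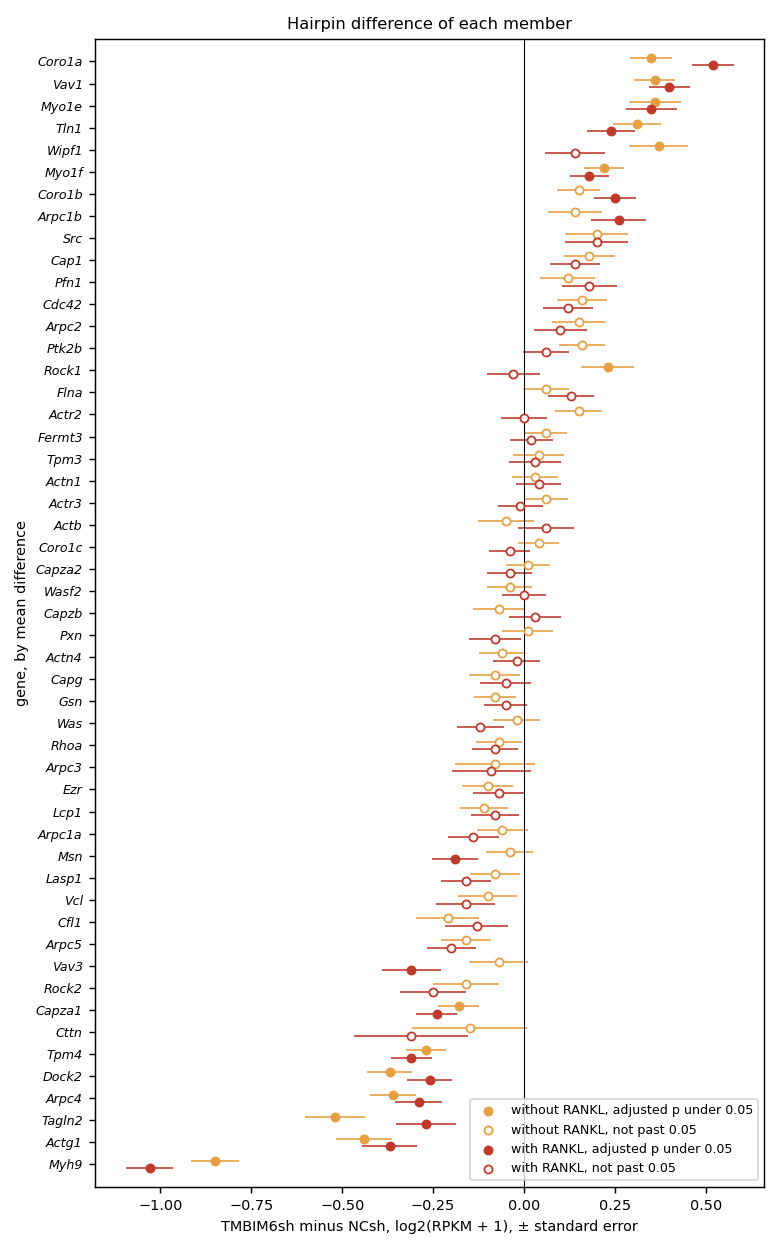
Difference between TMBIM6sh and NCsh libraries for each of the 51 members, in log2(RPKM + 1) with standard errors, without RANKL (orange) and with RANKL (red); filled points have an adjusted p under 0.05 and open points do not. Myh9 stands alone at the low end, at -0.85 and -1.03, and Coro1a and Vav1 are at the high end.

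The cytoplasmic actins parted between the hairpins. Actg1 had 1057 and 1029 RPKM in TMBIM6sh libraries, against 1411 and 1428 RPKM in NCsh, and fell by 0.44 on the log2 scale (SE 0.076, adjusted p = 0.00265 by limma). With RANKL it had 864 and 935 RPKM against 1139 and 1184 RPKM, and fell by 0.37 (SE 0.076, adjusted p = 0.00589 by limma). Actb had 1443 and 1422 RPKM in TMBIM6sh, and 1278 and 1194 RPKM in TMBIM6sh with RANKL. Its differences were -0.05 (95% interval -0.22 to 0.13, adjusted p = 0.723) and 0.06 (95% interval -0.11 to 0.24, adjusted p = 0.594). The ratio of Actb to Actg1 RPKM was 1.03 and 1.05 in NCsh, 1.06 and 0.98 in NCsh with RANKL, 1.36 and 1.38 in TMBIM6sh, and 1.48 and 1.28 in TMBIM6sh with RANKL. All 4 TMBIM6sh libraries lay above all 4 NCsh libraries, and the ratio itself, chosen after its values were seen, was not tested. Without NCsh RANKL library 2 the call of Actg1 with RANKL ended (adjusted p = 0.0649). Of all 50-base stretches of the Actg1 transcript 56.7% also occur in transcripts of 22 other genes, Gm12715 alone holding 51.1%, and for Actb the share is 14.2%. Actb holds 1.58% of the Actg1 stretches.

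**Figure D4:**
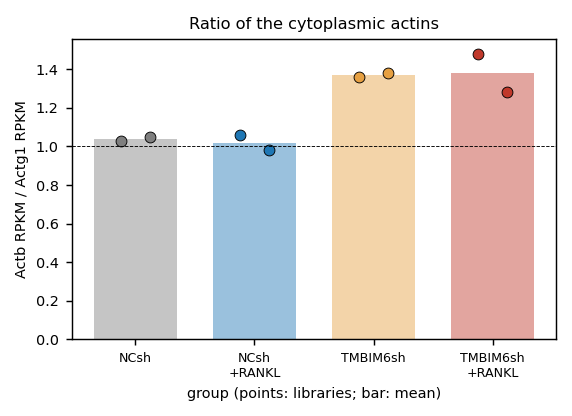
Actb RPKM divided by Actg1 RPKM in each library (points) with the mean of each group (bars); the dashed line marks 1. The NCsh libraries lie between 0.98 and 1.06 and the TMBIM6sh libraries between 1.28 and 1.48.

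Other genes of filament turnover and crosslinking also differed. Coro1a had 212 RPKM in both TMBIM6sh libraries and 171 and 180 RPKM in TMBIM6sh with RANKL. It was higher than in NCsh in both states, by 0.35 (SE 0.0574, adjusted p = 0.00203 by limma) and 0.52 on the log2 scale (SE 0.0574, adjusted p = 0.000207 by limma), with no overlap. So Coro1a was lower with RANKL in each hairpin and higher with TMBIM6sh in each RANKL state. Coro1b, a coronin of other tissues as well, was higher with RANKL present (log2 0.25, adjusted p = 0.0112) and Coro1c passed in neither state (log2 0.04 and -0.04). Of Coro1b stretches 20.8% occur in 1 other gene, Ptprcap. Tagln2 had 127 and 141 RPKM in NCsh and 146 and 160 RPKM in NCsh with RANKL, above the TMBIM6sh libraries of the same state (log2 -0.52 and -0.27, adjusted p = 0.00161 and 0.0349). Capza1, a capping protein subunit, had 103 to 104 RPKM in the NCsh libraries, 94.5 and 88.5 RPKM in TMBIM6sh and 87.1 and 87.3 RPKM in TMBIM6sh with RANKL (log2 -0.18 and -0.24, adjusted p = 0.0481 and 0.0117). Its transcript is the most ambiguous of the set, with 73.8% of stretches found elsewhere, chiefly in Gm3608. Msn was lower with RANKL (log2 -0.19, adjusted p = 0.0498).

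Of 12 genes of branched actin nucleation 2 were called without RANKL and 2 with it. That was 16.7% each time, beside 24.2% and 28.6% of all genes tested. Of 6 Arp2/3 subunit genes with an Arpc symbol, Arpc4 was lower in both states, with 142 and 151 RPKM in NCsh, 126 and 137 in NCsh with RANKL, 115 and 112 in TMBIM6sh and 106 and 109 in TMBIM6sh with RANKL (log2 -0.36 and -0.29, adjusted p = 0.00307 and 0.0087). Ttll3, whose annotated region on the same strand overlaps the end of Arpc4 and whose transcripts share 10.5% of its stretches, was lower too (log2 -0.41 and -0.30, adjusted p = 0.00294 and 0.0121). Arpc1b was higher with RANKL present, at 478 and 524 RPKM against 412 and 426 RPKM (log2 0.26, adjusted p = 0.0299), and its paralog Arpc1a had log2 values of -0.06 and -0.14 and did not pass. Of Arpc1b stretches 12.8% occur in other genes, chiefly Gm5637. Wipf1 was higher without RANKL, at 48.9 and 49.8 RPKM against 41.6 and 34.8 RPKM (log2 0.37, adjusted p = 0.0103). Was, Wasf2, Actr2, Actr3, Arpc3, Arpc5 and Cttn passed in no comparison.

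Among adhesion genes Tln1 alone passed between hairpins, at 154 and 158 RPKM in TMBIM6sh against 132 and 118 RPKM in NCsh, and at 126 and 130 against 108 and 108 RPKM with RANKL (log2 0.31 and 0.24, adjusted p = 0.00764 and 0.0214). Src had log2 values of 0.20 in both states (adjusted p = 0.132 and 0.112) with both TMBIM6sh libraries above both NCsh libraries each time. Vav1, the exchange factor of blood cells, had 75.5 and 76.5 RPKM in TMBIM6sh and 65.2 and 69.3 RPKM in TMBIM6sh with RANKL. Both pairs lay above the NCsh pairs of the same state (log2 0.36 and 0.40, SE 0.0565 each, adjusted p = 0.00162 and 0.000838 by limma). Vav3 was not different without RANKL past the threshold (log2 -0.07, adjusted p = 0.594) and was lower with it (log2 -0.31, adjusted p = 0.0178). Dock2 was lower in TMBIM6sh in both states (log2 -0.37 and -0.26, adjusted p = 0.00265 and 0.0123), each time with both libraries under the NCsh pair. Rock1 had 21.1 and 20.3 RPKM in TMBIM6sh against 18.5 and 16.5 RPKM in NCsh without RANKL (log2 0.23, adjusted p = 0.0448), and a log2 value of -0.03 with RANKL.

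**Figure D5:**
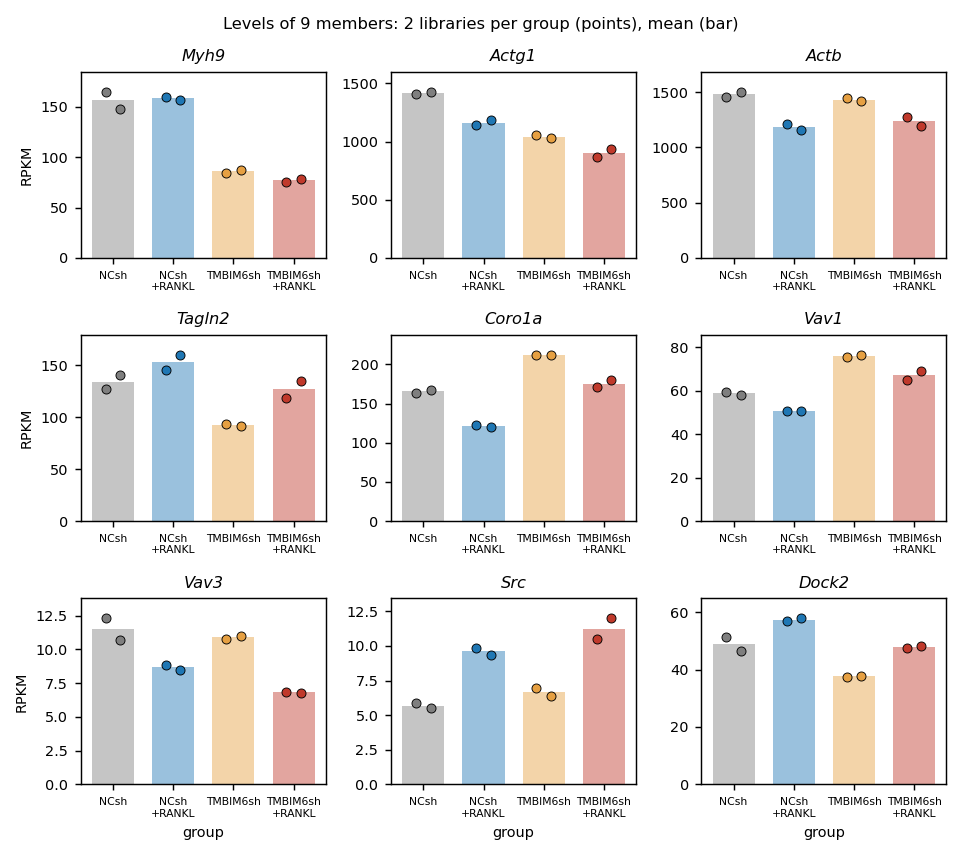
RPKM of 9 members in the 2 libraries of each group (points), with the group mean as a bar from 0. Myh9 and Actg1 are lower in both TMBIM6sh groups, Coro1a and Vav1 are higher there, and Src and Vav3 move with RANKL in opposite directions.

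The hairpin differences of the 51 members in the 2 RANKL states, which rest on separate libraries, had Pearson's r of 0.905 and Spearman's coefficient of 0.887 across genes, with r of 0.775 over all genes tested. Without RANKL the calls of Myh9, Actg1, Arpc4, Coro1a, Dock2, Tagln2 and Vav1 held in all 14 alternatives, and with RANKL those of Myh9, Coro1a, Myo1e, Tpm4 and Vav1. Without RANKL, leaving out TMBIM6sh library 1 left 8 calls and library 2 left 7: Tln1, Tpm4, Wipf1, Myo1f, Rock1 and Capza1 were lost without either, Capza1 also without any other library and Rock1 without all others but NCsh library 1, and Myo1e without library 2 (adjusted p = 0.0506). With RANKL, leaving out NCsh RANKL library 1 left 7 calls, library 2 left 6, and TMBIM6sh RANKL library 1 left 9. Capza1, Dock2, Tagln2, Tln1, Vav3, Arpc1b, Myo1f and Msn were lost there without either NCsh RANKL library, Coro1b without library 1 and Arpc4 without library 2 (adjusted p up to 0.21). Msn, Myo1f and Tagln2 were lost as well without 3 or more other libraries, all in TMBIM6sh groups, Arpc1b without 3 of them, Tln1 and Vav3 without either TMBIM6sh RANKL library, Dock2 and Arpc4 without library 1 and Coro1b without library 2. With median-ratio scaling Capza1, Dock2, Msn, Tagln2 and Vav3 no longer passed with RANKL, nor Capza1 without it.

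The other 27 members had no call in any comparison. In the adhesion ring these were Ptk2b, the kinase Pyk2 (95 to 112 RPKM), Pxn, the adaptor paxillin (29.2 to 33.7 RPKM), Fermt3, the integrin activator kindlin-3 (91.8 to 102 RPKM), and Lasp1, a LIM and SH3 protein (135 to 168 RPKM). In the branched core they were Cttn, Was (33.7 to 38.1 RPKM), the WAVE gene Wasf2 (60 to 65.6 RPKM), Arpc1a (17 to 20.5 RPKM), Arpc3 (196 to 285 RPKM), Arpc5 (176 to 244 RPKM), and Actr2 and Actr3, the actin-related subunits (202 to 238 and 281 to 318 RPKM). Of the turnover genes they were Cfl1 (916 to 1215 RPKM), Pfn1 (635 to 789 RPKM), Coro1c (93.8 to 107 RPKM), Gsn, the severing protein gelsolin (189 to 214 RPKM), and the cappers Capg (399 to 491 RPKM) and Capza2 (117 to 138 RPKM). Among crosslinkers and linkers they were the alpha-actinins Actn1 (60.4 to 70.1 RPKM) and Actn4 (106 to 116 RPKM), Flna, filamin A (168 to 200 RPKM), Lcp1, the leukocyte plastin (464 to 542 RPKM), and Ezr, ezrin (28.1 to 32.1 RPKM). Tpm3 (284 to 320 RPKM), the GTPases Rhoa (200 to 228 RPKM) and Cdc42 (306 to 394 RPKM), and the kinase Rock2 (9.48 to 12.7 RPKM) complete them.

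Around the set, 6 lists of other genes of the same machinery had 128 genes tested out of 147 listed. From each, up to 4 genes with the smallest adjusted p were picked, and the calls given next held in all 14 alternatives, apart from that of Egr1 with RANKL. Of the 56 called results of the picked genes and Tmbim6, 15 were lost in at least 1 alternative. Most of those 15 are not described, so the calls given next are the more stable ones. The counts stand beside the shares of all genes tested given above, 15.0% and 15.4% for RANKL in NCsh and TMBIM6sh and 24.2% and 28.6% for the hairpin without and with RANKL. Of 25 podosome adaptors and regulators 4 were higher and 4 lower with RANKL in NCsh, and 3 higher and 4 lower in TMBIM6sh (32% and 28% of the list). Between hairpins 6 were higher and 8 lower in TMBIM6sh without RANKL, and 4 higher and 11 lower with it (56% and 60%). With median-ratio scaling the split was 7 higher and 9 lower in the last of these, and 2 higher and 5 lower with RANKL in NCsh. Lsp1, a leukocyte actin-binding protein of podosomes, had 12.3 and 14 RPKM in NCsh, 8.11 and 8.11 in NCsh with RANKL, 5.55 and 5.04 in TMBIM6sh and 2.24 and 2.56 in TMBIM6sh with RANKL. It was lower in TMBIM6sh in both states (log2 -1.16 and -1.42, adjusted p = 4.12e-05 and 1.31e-05) and fell with RANKL in each hairpin (log2 -0.63 and -0.89, adjusted p = 0.00205 and 0.000241). Pstpip1, a WASP-binding adaptor, was lower in TMBIM6sh (log2 -0.47 and -0.49, adjusted p = 0.00075 and 0.000554) and the focal adhesion gene Tes higher (log2 0.70 and 0.62, adjusted p = 0.000396 and 0.000698). Evl, an actin polymerase of the Ena/VASP family, fell with RANKL (log2 -0.35 in NCsh and -0.47 in TMBIM6sh, adjusted p = 0.00286 and 0.000428).

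Of 20 nucleation and WAVE complex genes 2 were higher and 1 lower with RANKL in NCsh, and 1 higher and 3 lower in TMBIM6sh (15% and 20%). Between hairpins 3 were higher and 2 lower in TMBIM6sh without RANKL, and 0 higher and 3 lower with it (25% and 15%). Median-ratio scaling turned the last split to 3 higher and 1 lower, and that of RANKL in NCsh to 1 higher and 2 lower. Wasl, the widely expressed N-WASP, had 12.1 and 12.4 RPKM in NCsh, 13.4 and 12.6 in NCsh with RANKL, 6.28 and 6.65 in TMBIM6sh and 7.88 and 6.18 in TMBIM6sh with RANKL (log2 -0.83 and -0.81, adjusted p = 0.000387 and 0.000393). Was, the blood cell WASP, is a member and passed in no comparison. Of 29 turnover and filament-binding genes 3 were higher and 3 lower with RANKL in NCsh, and 3 higher and 2 lower in TMBIM6sh (20.7% and 17.2%). Between hairpins 6 were higher and 3 lower without RANKL, and 8 higher and 5 lower with it (31% and 44.8%). Marcksl1, a membrane-bound filament binder, was higher in TMBIM6sh (log2 0.77 and 0.71, adjusted p = 2.98e-05 and 2.86e-05) and fell with RANKL (log2 -0.67 and -0.72, adjusted p = 0.000135 and 4.57e-05). Ssh1, the phosphatase that activates cofilin, was higher in TMBIM6sh (log2 0.78 and 0.82, adjusted p = 0.00065 and 0.000454). Fscn1, the bundling protein fascin, rose with RANKL from 1.15 and 1.26 to 3.41 and 2.37 RPKM in NCsh and from 1.19 and 1.26 to 5.58 and 5.28 RPKM in TMBIM6sh (log2 0.80 and 1.53, adjusted p = 0.00395 and 9.94e-05). With RANKL present Fscn1 was also called higher in TMBIM6sh than in NCsh.

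Of 12 other myosin genes 1 was higher and 1 lower with RANKL in NCsh, and 1 higher and 4 lower in TMBIM6sh (16.7% and 41.7%). Between hairpins 3 were higher and 1 lower in TMBIM6sh without RANKL, and 1 of each with it (33.3% and 16.7%). Median-ratio scaling gave 3 higher and 1 lower with RANKL present, and 0 higher and 4 lower for RANKL in NCsh. Myo5a, a vesicle motor, was lower in TMBIM6sh (log2 -0.39 and -0.59, adjusted p = 0.00194 and 0.000169). Of 35 small GTPases and regulators 2 were higher and 5 lower with RANKL in NCsh, and 4 higher and 7 lower in TMBIM6sh (20% and 31.4%). Between hairpins 3 were higher and 5 lower without RANKL, and 0 higher and 11 lower with it (22.9% and 31.4%), where 19.7% of genes tested were lower. With median-ratio scaling these splits were 4 higher and 4 lower, and 4 higher and 6 lower, so the direction of this list depends on the scaling. Rhob, a GTPase of endosomes, had 97.2 and 94.9 RPKM in NCsh, 70.2 and 72.6 in NCsh with RANKL, 55.8 and 58.4 in TMBIM6sh and 37.5 and 39.7 in TMBIM6sh with RANKL. It was lower in TMBIM6sh (log2 -0.74 and -0.87, adjusted p = 4.11e-05 and 1.66e-05) and fell with RANKL (log2 -0.42 and -0.55, adjusted p = 0.00161 and 0.000265). Dock5, a Rac activator needed for the osteoclast sealing zone, rose with RANKL from 5.38 and 4.63 to 11.4 and 12.4 RPKM in NCsh and from 4.59 and 4.16 to 11.6 and 11.7 RPKM in TMBIM6sh (log2 1.11 and 1.24, adjusted p = 0.000115 and 3.42e-05). Of the serum response factor list 7 were tested and 1 was called in each hairpin comparison (14.3%), while 0 were called for RANKL in either hairpin. The called gene, Egr1, was lower in TMBIM6sh without RANKL (log2 -0.61, adjusted p = 0.00379) and with it (log2 -0.43, adjusted p = 0.0176). The call with RANKL ended without NCsh RANKL library 1 and without either TMBIM6sh RANKL library (adjusted p up to 0.103). With median-ratio scaling 1 gene of the list was higher and 1 lower there. Srf and its coactivator genes Mkl1 and Mkl2 passed in no comparison.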

How the data were processed

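RNA-seq was analysed in 8 libraries of mouse bone marrow macrophages, 2 in each of 4 groups. The deposited values are RPKM, which the authors made with HOMER in mm10 by counting tags over exons on both strands, with isoforms condensed to 1 entry per gene, per the file headers. FPKM is written in the column heads, but RPKM in the recorded command, which was followed. HISAT2, HOMER and DESeq2 are named in the submitters' processing notes, with versions not given in the sources used here. Reads from overlapping or antisense genes cannot be told apart, and how reads with several matches were counted is not given in the sources used here.

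Depth was read from the steps of 1 tag in the values (3079 to 3235 values per library, 100% whole within 0.1 tags). The values were tested as log2(RPKM + 1), which understates changes of low genes. In limma 3.58.1 (R 4.3.3) each group had its own mean, fitted to the 11040 genes with at least 1 RPKM in at least 2 libraries, with an intensity trend and 1 spread shared by all 8 libraries (4 residual and 5.54 prior degrees of freedom). P-values were adjusted by Benjamini-Hochberg over all 11040 genes, and a call is an adjusted p under 0.05. With 2 libraries against 2 an exact two-sided permutation test cannot go below p = 0.333, so none was run. Duplicates correlated at 0.993 to 0.995.

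The members, lists and motifs were chosen with earlier results of these data known. All members are named with values. Of each wider list up to 4 genes with the smallest adjusted p were picked, and some of these are not reported here. The alternatives were a pseudocount of 0.1, no filter, median-ratio scaling, a replicate block, no trend, the 4 libraries of a comparison alone, and leaving out each library. Ambiguity was counted as 50-base stretches of a transcript that also occur in GENCODE transcripts of other genes, for 50 members.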

Additional observations from a re-analysis of the deposited data

How the results depend on the processing

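Counts of called members were 10 and 11 for RANKL in NCsh and TMBIM6sh, 14 and 16 for the hairpin without and with RANKL, and 0 for the interaction. For RANKL in NCsh the count was 4 with no filter, 17 with median-ratio scaling, 5 with no intensity trend and 2 when its own 4 libraries were fitted alone. For RANKL in TMBIM6sh it was 19 with median-ratio scaling. Leaving out 1 library at a time gave 2 to 10 and 3 to 17 calls for RANKL in NCsh and TMBIM6sh, 7 to 18 and 6 to 19 for the hairpin without and with RANKL, and 0 for the interaction. The alternatives not named kept these counts within 1.5 times. A lone library left in a group is assumed to vary like the other groups, and the cause of the changed counts was not tested. The shares of all genes tested called under these alternatives are not given here. The changed counts therefore cannot be told apart from a change over all genes.

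With the replicate number as a block the counts were 10, 11, 12, 17 and 0. Deviations of same-numbered libraries correlated at -0.0651 to 0.0625 between groups, so no shared effect of the replicate number was seen. That cannot show whether same-numbered libraries shared a mouse or culture. Under the block 4 calls of members were lost. Of the 51 called results of members 0 changed sign in any alternative, and 14 lost their call with no filter. Of 56 called results of the 24 picked wider-list genes and Tmbim6, 41 held in every alternative. Cttn rests on few tags (53 to 118 per library), so small changes of it were not detectable at this depth.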
